A study of Mus musculus with 12 samples.

Results

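The genes described here encode the Dectin family of C-type lectin receptors and the signalling route behind them. They are the receptor genes Clec7a, Clec4n, Clec4d and Clec4e, the gene of the shared signalling chain Fcer1g, the kinase and phospholipase genes Syk and Plcg2, and Card9, Bcl10 and Malt1. They were taken by symbol from a table of 50559 genes, in which all 10 were found. The cells were bone marrow-derived macrophages of C57BL/6 mice, given house dust mite allergen (HDM) or its vehicle and taken after 1 h, 6 libraries per treatment. Beyond strain, cell type and treatment the labels name no genotype, sex or age, and nothing in them ties a library to an animal or a dish. The p-values therefore speak only of the spread among these 12 libraries, which may be technical.

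Dectin receptors sit on myeloid cells and bind sugars and glycolipids of fungi, mycobacteria and house dust mites. Clec7a (Dectin-1) carries its own tyrosine-based signalling motif, whereas Clec4n (Dectin-2) and Clec4e (Mincle) signal through the Fc receptor gamma chain made from Fcer1g. Either way the kinase SYK is recruited and activates phospholipase C gamma 2, and CARD9 then assembles with BCL10 and the protease MALT1 to switch on NF-kB and cytokine genes. Dectin-2 is known as a receptor for mite glycans on dendritic cells and macrophages.

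Counted reads per library ran from 19.7 M to 119.7 M, and the genes of the pathway had between 16583 (Card9) and 520357 (Clec4d) reads over the 12 libraries, and all 10 passed the filter on low counts. In the library where each gene had the fewest reads, Poisson counting error alone ran from 0.01 on the log2 scale (Clec4d) to 0.07 (Card9). The 8 macrophage markers, such as Adgre1 and Csf1r, summed to 16655 to 20555 counts per M (CPM) with HDM and 16427 to 20948 with vehicle. Most of that sum was Lyz2, at 10384 to 13732 CPM over the 12 libraries. Adgre1 was at 2469 to 2779 CPM in libraries numbered 1 to 4 and 1439 to 1481 in those numbered 5 and 6. Cd68 went the other way, at 1315 to 1428 and 1761 to 1777 CPM. Marker lists of dendritic cells, neutrophils, mast cells with basophils, B cells, T and NK cells, and stroma each summed to at most 6.47 CPM in any library. Of the 6 mast cell and basophil markers, Mcpt8, Fcer1a and Ms4a2 were at 0 in every library. The last 2 encode partners of the Fcer1g chain in the IgE receptor. Cpa3 was at most at 0.05 CPM. Kit was at 0.14 to 0.40 CPM in numbers 1 to 4 and at 2.07 to 2.26 in numbers 5 and 6. Gata2 was at 0.22 to 0.84 CPM in numbers 1 to 4 and at 1.14 to 1.34 in numbers 5 and 6. The first principal component, 40.6% of the variance, placed numbers 5 and 6, with HDM and with vehicle alike, away from numbers 1 to 4, a split that no label explains. The changes of the 10 genes are therefore given by group and also with the library number as a block, a fit that compares the HDM and the vehicle library of the same number.

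Of the 10 genes, Bcl10 was the one called by group (edgeR's quasi-likelihood test, adjusted p under 0.05 over 13530 tested genes), and it was higher with HDM. Over all tested genes the share called higher was 2.9%. With the number as a block 4 of the 10 rose, Clec4e, Bcl10, Malt1 and Clec4d, beside shares of 7.9% higher and 6.81% lower over all genes in that fit. In none of the 10 did the 6 HDM values lie wholly apart from the 6 vehicle values, as they did in 4.39% of all tested genes. The largest change was that of Clec4e, while Clec7a, Clec4n, Fcer1g, Syk, Plcg2 and Card9 were called in neither fit. The median log2 change of the 10 was 0.04, against -0.00 over all tested genes. The RNA is that of whole cultures, so fewer cells of a kind and less RNA per cell cannot be told apart.

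**Figure D1:**
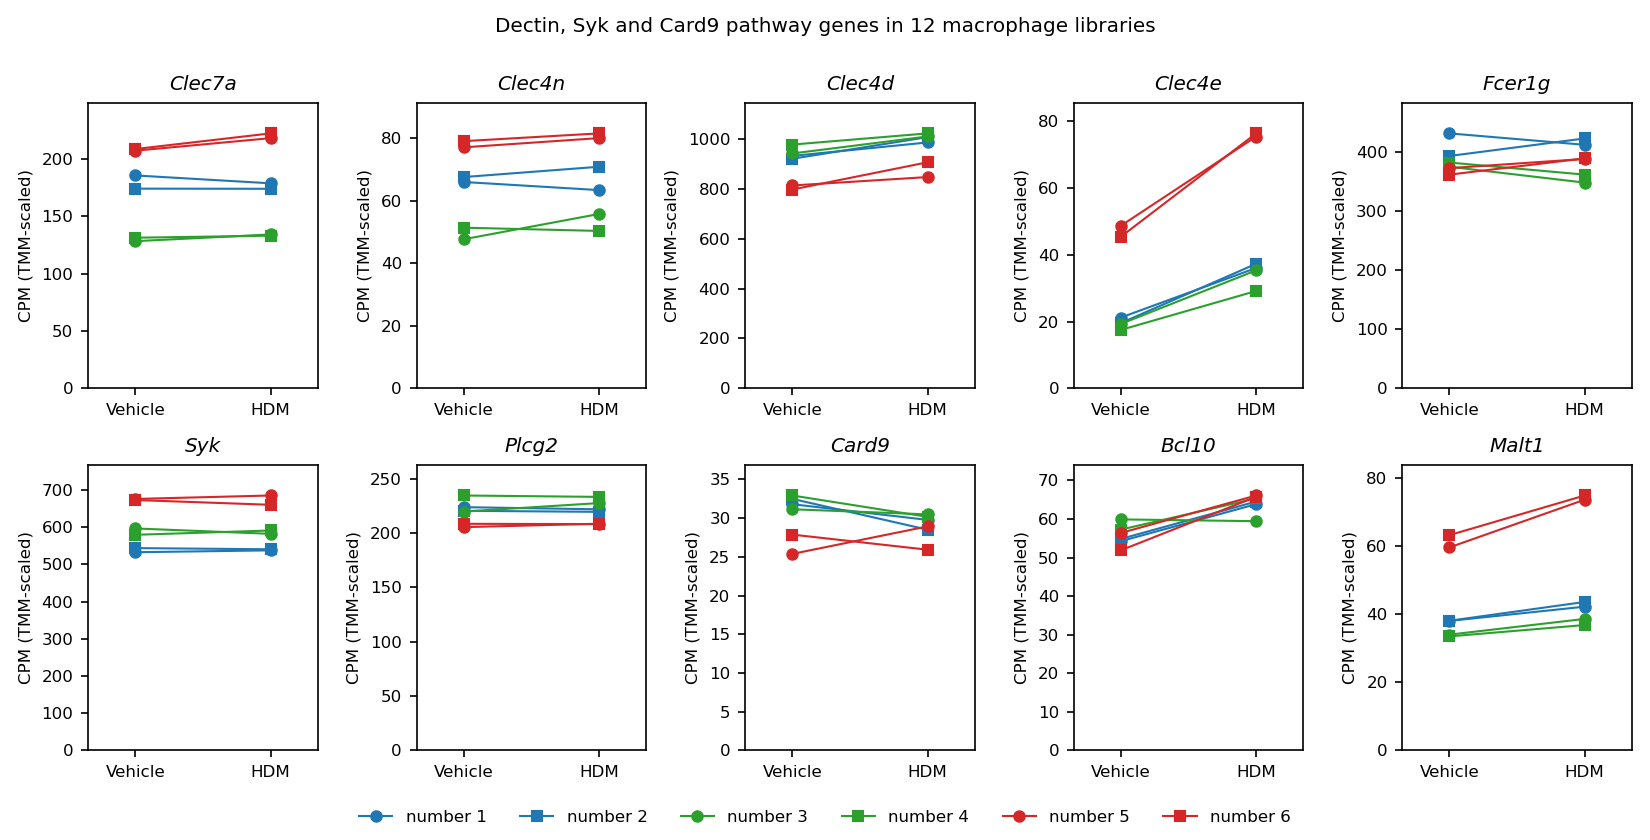
Level of each gene in the 12 libraries, as CPM with TMM scaling on linear axes that start at 0; each line joins the vehicle and the HDM library of 1 number, and colour pairs neighbouring numbers. Clec4e climbs along all 6 lines from 2 separate starting levels, and Bcl10 along 5, while Syk and Plcg2 run flat.

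Clec4e encodes Mincle, a receptor for mycobacterial and fungal glycolipids and for a nuclear protein released by dying cells. In the vehicle libraries numbered 1 to 4 it was at 21.2, 19.6, 19.3 and 17.5 CPM, and at 48.7 and 45.4 CPM in those numbered 5 and 6. In the HDM libraries it was at 36.1, 37.3, 35.3 and 29.2 CPM in numbers 1 to 4, and at 75.4 and 76.4 CPM in numbers 5 and 6. Over all 12 the treatments overlapped, because vehicle libraries 5 and 6 lay above HDM libraries 1 to 4, but within each of these 2 sets every HDM library lay above every vehicle library. How many of all tested genes lay apart within both sets was not computed. Between libraries of the same number the level of Clec4e was 1.55 to 1.91 times higher with HDM, in 6 of 6. Of all tested genes 17.9% lay on 1 side in all 6 numbers, in either direction. The fit by group gave a log2 fold change of 0.77 ± 0.34 SE and did not call it (adjusted p = 0.312), whereas the fit with the number as a block gave 0.78 ± 0.04 and called it (edgeR, adjusted p = 5.87e-11). Each set of libraries called it by group on its own, in fits that called 5% and 4.25% of all tested genes higher, at 0.83 ± 0.08 in numbers 1 to 4 (adjusted p = 1.31e-05) and 0.70 ± 0.05 in numbers 5 and 6 (adjusted p = 9.54e-16). The difference between those 2 changes was -0.13 ± 0.12 SE on the log2 scale and was not called (edgeR interaction term, adjusted p = 0.943). Fits of numbers 5 and 6 alone, here and below, held 2 libraries per treatment, and the sets were seen in these same data. The p-values of these fits speak of few libraries and are no separate replication.

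Clec4d encodes MCL, a relative that pairs with Mincle on the cell surface, and lies next to Clec4e and Clec4n in a lectin gene cluster on chromosome 6. It was the most abundant of the receptor transcripts, at 797 to 977 CPM with vehicle (median 926) and 847 to 1022 with HDM (median 997). Each HDM library exceeded the vehicle library of its number, by 1.04 to 1.14 times, a share of numbers on 1 side that 17.9% of all tested genes also showed in either direction. The fit by group did not call it (log2 fold change 0.10 ± 0.06 SE, adjusted p = 0.588), and the block did (0.10 ± 0.02, adjusted p = 0.00357). Numbers 1 to 4 alone did not call it (adjusted p = 0.0754) and numbers 5 and 6 alone did (0.0104). The Clec4e to Clec4d count ratio, which needs no scaling between libraries, had a median of 0.0220 with vehicle and 0.0368 with HDM and was higher in 6 of 6 numbers. Over the 12 libraries that shift was not beyond their spread (log2 change 0.68, exact two-sided permutation test, p = 0.152, adjusted over 9 ratios 0.455). With signs flipped within numbers the exact p was 0.0312, the smallest that 6 pairs allow, and 0.0703 after adjustment.

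The upstream stretches of Clec4e and Clec4d, neighbours with changes of 0.78 and 0.10 on the log2 scale in the block, and of Bcl10, the gene called in both fits, are shown with letters that match 4 motifs in capitals. They are the 250 bases before the annotated start from RefSeq (GRCm38.p6), written along the gene's own strand. For Clec4e the stretch is chr6:123289872-123290121 on the minus strand, for Clec4d chr6:123261857-123262106 on the plus strand, and for Bcl10 chr3:145924012-145924261 on the plus strand.
Clec4e: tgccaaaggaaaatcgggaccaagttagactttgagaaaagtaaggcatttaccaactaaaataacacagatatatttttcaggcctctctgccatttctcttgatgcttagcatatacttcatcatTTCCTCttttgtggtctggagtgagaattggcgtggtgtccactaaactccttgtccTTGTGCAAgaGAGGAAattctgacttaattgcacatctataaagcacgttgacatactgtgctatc
Clec4d: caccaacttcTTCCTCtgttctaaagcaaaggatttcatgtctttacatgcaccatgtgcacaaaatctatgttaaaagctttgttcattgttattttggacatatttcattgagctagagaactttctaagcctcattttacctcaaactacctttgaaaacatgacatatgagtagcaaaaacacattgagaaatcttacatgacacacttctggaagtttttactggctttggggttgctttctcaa
Bcl10: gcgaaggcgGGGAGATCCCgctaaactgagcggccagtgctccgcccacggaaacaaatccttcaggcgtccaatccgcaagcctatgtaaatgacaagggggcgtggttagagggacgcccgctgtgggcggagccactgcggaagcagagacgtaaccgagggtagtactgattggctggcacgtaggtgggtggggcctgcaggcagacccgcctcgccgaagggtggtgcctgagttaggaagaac

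The motifs searched on both strands were the NF-kB consensus, TTGCNNAA for the C/EBP factors, TGANTCA for AP-1 and GAGGAA for PU.1 and its relatives. The Clec4e stretch held a C/EBP match on the other strand, read here as TTGTGCAA, from -66 to -59 relative to the start. It also held GAGGAA from -56 to -51 and, on the other strand, from -123 to -118. Clec4d held a single GAGGAA match, on the other strand from -240 to -235. Bcl10 held an NF-kB match, GGGAGATCCC, from -241 to -232. GAGGAA also stood upstream of genes called in neither fit. For Clec7a it lay from -96 to -91 or from -90 to -85, depending on the annotated start. For Syk it lay from -9 to -4 of an annotated start. The stretches of Fcer1g, Card9 and Plcg2 held no match. Among 32851 RefSeq stretches of the same length, 3.9% held the NF-kB consensus, 9.56% the C/EBP motif, 6.75% the AP-1 motif and 23.3% GAGGAA. A match is a run of letters and not a shown binding site.

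Clec7a and Clec4n encode Dectin-1, which binds fungal beta-glucans, and Dectin-2, which binds mannose-rich glycans. Clec7a was at 128 to 209 CPM with vehicle (median 180) and at 133 to 222 with HDM (median 176). Clec4n was at 47.7 to 79.1 CPM with vehicle (median 66.8) and at 50.4 to 81.6 with HDM (median 67.2). For both genes the treatments covered nearly the same range, and the libraries fell into 3 levels by neighbouring numbers. Clec7a lay at 174 to 186 CPM in numbers 1 and 2, at 128 to 134 in numbers 3 and 4, and at 207 to 222 in numbers 5 and 6, whichever the treatment. The log2 fold change was 0.04 ± 0.16 SE for Clec7a and 0.05 ± 0.15 for Clec4n by group, both with adjusted p = 1.00. With the block it was 0.03 ± 0.02 for Clec7a (95% interval -0.02 to 0.08, adjusted p = 0.48) and 0.05 ± 0.03 for Clec4n (-0.02 to 0.11, adjusted p = 0.424). The Clec7a to Clec4n count ratio had a median of 2.66 with vehicle and 2.68 with HDM and kept to 2.40 to 2.82 over all 12 libraries (exact permutation test, two-sided, p = 0.662, adjusted 0.996). The Clec4e to Clec4n ratio went from a median of 0.373 to 0.607, higher in 6 of 6 numbers (log2 change 0.73, exact permutation p = 0.0238, adjusted 0.107, and 0.0312 and 0.0703 with signs flipped within numbers). Without vehicle library 5 the adjusted p of the permutation test was 0.0292, and in the other 14 settings tried the ratio was not called.

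Fcer1g, which encodes the gamma chain that several of these lectins and the activating Fc receptors share, was at 361 to 431 CPM with vehicle (median 378) and at 347 to 422 with HDM (median 388). It was higher in 3 numbers and lower in 3. The log2 fold change was 0.00 ± 0.05 SE by group (adjusted p = 1.00) and 0.00 ± 0.03 with the block (95% interval -0.06 to 0.07, adjusted p = 0.971). Syk, the kinase gene, was at 532 to 676 CPM with vehicle (median 588) and at 537 to 685 with HDM (median 586). Its 6 same-numbered differences lay between -0.04 and 0.03 on the log2 scale, the narrowest spread of the 10 genes beside that of Plcg2. By group its log2 change was -0.00 ± 0.08 (adjusted p = 1.00). The block gave Syk a 95% interval of -0.05 to 0.04 and an adjusted p of 0.98. Plcg2, which encodes the phospholipase that SYK activates in this route, was at 205 to 235 CPM with vehicle (median 220.1) and at 208 to 233 with HDM (median 220.6). Its change was 0.01 ± 0.04 by group (adjusted p = 1.00), and the block gave 0.01 ± 0.02 SE (95% interval -0.04 to 0.05, adjusted p = 0.894). For Fcer1g, Syk and Plcg2 the sign of so small a value turned with the scaling of the libraries.

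Bcl10 encodes the adaptor that joins CARD9 to MALT1. It was at 54.3, 54.8, 59.9, 57.3, 56.4 and 51.9 CPM in vehicle libraries 1 to 6, and at 63.9, 64.5, 59.4, 65.3, 66.1 and 65.8 CPM in HDM libraries 1 to 6. All HDM libraries but number 3 lay above all vehicle libraries, and HDM 3 lay just below vehicle 3. In the fit by group Bcl10 rose 1.15-fold, a log2 change of 0.20 with an SE of 0.04 (edgeR, adjusted p = 0.00594), and by 0.21 ± 0.04 with the block (adjusted p = 0.000494). Its level did not follow the number sets: with vehicle it was 0.957 times as high in numbers 5 and 6 as in 1 to 4. The genes with the closest profile over the 12 libraries, of 11428 searched, were Pik3r1, Rnf41 and Arl13b, at root mean square distances of 0.0482, 0.0489 and 0.0516 on the log2 CPM scale. Pik3r1 encodes a regulatory subunit of PI3 kinase and Rnf41 a ubiquitin ligase. Their log2 fold changes were 0.18, 0.21 and 0.16.

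Malt1 encodes the protease of the complex, which also cuts RNA-binding and NF-kB regulators. It was at 38.0, 38.1, 34.0 and 33.5 CPM in vehicle libraries 1 to 4 and at 59.6 and 63.2 CPM in numbers 5 and 6. With HDM it was at 42.2, 43.6, 38.6 and 36.8 CPM in numbers 1 to 4 and at 73.6 and 74.8 CPM in numbers 5 and 6. As with Clec4e the treatments overlapped over all libraries, while in every number the HDM library was the higher, by 1.10 to 1.23 times. Of all tested genes 17.9% lay on 1 side in all 6 numbers, in either direction. The fit by group did not call it (log2 fold change 0.22 ± 0.23 SE, adjusted p = 0.877), and with the block it rose by 0.20 ± 0.03 (adjusted p = 9e-05). Numbers 5 and 6 alone called it (0.27 ± 0.05, adjusted p = 2.26e-05) and numbers 1 to 4 alone did not (0.17 ± 0.06, adjusted p = 0.132). The difference between the 2 sets, 0.10 ± 0.10 SE, was not called (edgeR interaction term, adjusted p = 0.95). The Bcl10 to Malt1 count ratio had a log2 change of 0.00 (exact permutation p = 0.996).

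Card9 encodes the adaptor that relays the SYK signal to BCL10. It was at 25.4 to 32.9 CPM with vehicle (median 31.5) and at 25.9 to 30.5 with HDM (median 29.3), and it was lower with HDM in 5 of 6 numbers. The log2 fold change was -0.07 ± 0.06 SE by group (adjusted p = 0.859) and -0.07 ± 0.04 with the block (95% interval -0.16 to 0.02, adjusted p = 0.297). In vehicle library 5 Card9 had 490 reads, its fewest, with a counting error of 0.07 on the log2 scale, as large as the fitted change. That is the error of a single library, whereas the fitted change rests on all of them, with the SE given above. Without both libraries of number 5, the only number where the HDM library was the higher, the block gave -0.11 and an adjusted p of 0.0444. In the other 8 alternatives of the block Card9 was not called. The Card9 to Bcl10 count ratio had a median of 0.556 with vehicle and 0.452 with HDM and was lower in 6 of 6 numbers. Its log2 change was -0.26 (exact two-sided permutation test, p = 0.013, adjusted 0.107). Without vehicle library 5 the adjusted p of that test was 0.0292, and in the other 14 settings tried the ratio was not called. The Card9 to Malt1 ratio was lower in 6 of 6 numbers as well, with a log2 change of -0.26 (exact permutation p = 0.439, adjusted 0.989, and 0.0703 with signs flipped within numbers). Of the 9 ratios 0 passed an adjusted p of 0.05 by group or within numbers in these exact tests. By group 2 had an unadjusted p under 0.05, and within numbers 4 did. In the annotation 87 bases of Card9 exons, 3.79% of their length, overlap Gm13562 on the opposite strand, and the strand setting of the counting is not given, so reads of the pair cannot be told apart there.

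**Figure D2:**
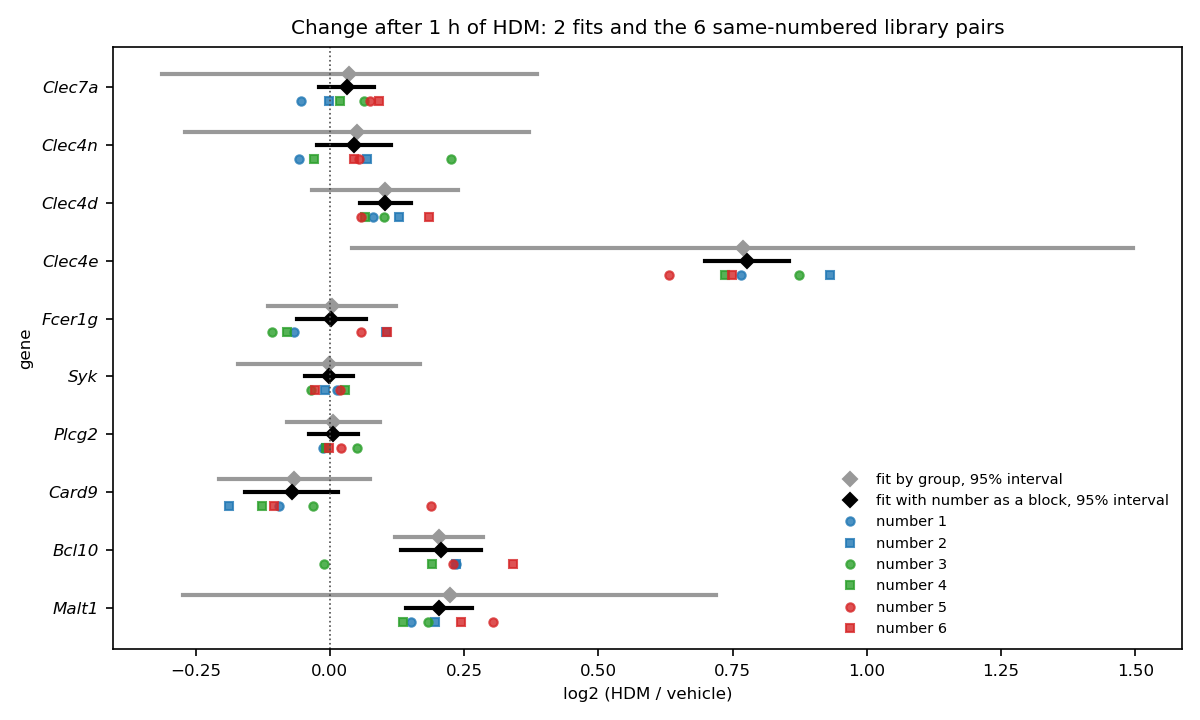
log2 ratio of HDM to vehicle for each gene: grey and black diamonds are the fits by group and with the number as a block, bars are their 95% intervals, and coloured symbols are the 6 same-numbered library pairs. The 6 symbols of Clec4e lie between 0.63 and 0.93, apart from those of the other 9 genes, of which the highest is 0.34 for Bcl10.

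Per length of transcript Clec4d, Fcer1g and Clec7a stood highest, while the receptor genes Clec4n and Clec4e stood 6 and 9 in the order of 10. With vehicle, levels per kb of annotated exon (GENCODE M21) ordered the genes as Clec4d (561 ± 46.1 CPM per kb, SD, n = 6), Fcer1g (441 ± 28.1), Clec7a (65.4 ± 13.5), Syk (64.1 ± 6.62), Plcg2 (50.9 ± 2.47), Clec4n (45.6 ± 9.11), Card9 (13.2 ± 1.3), Bcl10 (12.2 ± 0.603), Clec4e (5.77 ± 2.9) and Malt1 (2.46 ± 0.741). On this scale Clec7a and Syk overlapped, as did Plcg2 and Clec4n, and Card9 and Bcl10. With the length of the principal transcript in place of all annotated exons, the orders of Plcg2 and Clec4n and of Card9 and Bcl10 turned, and the other places stayed. On that scale Clec7a at 244 ± 50.3 lay apart from Syk at 112 ± 11.6, and Bcl10 at 28.6 ± 1.41 from Card9 at 15.5 ± 1.54. There Clec4e went from 11.4 ± 5.71 CPM per kb with vehicle to 19.2 ± 8.57 with HDM, still far below Clec4d at 678 ± 55.8 and 728 ± 53.3. The gene that changed most was thus, beside Malt1, among the least abundant of the route.

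The library number accounted for more of the spread than the treatment in 9 of the 10 genes. Its share of the sum of squares of log2 CPM was 99.2% for Syk, 98.9% for Clec7a, 96.5% for Plcg2, 96.2% for Clec4n, 93.5% for Malt1, 77.1% for Clec4d, 75.5% for Fcer1g, 68.4% for Clec4e and 65.7% for Card9. Over all tested genes the median share of the number was 64.4% and that of the treatment 5.4%, and by degrees of freedom alone they would be 45.5% and 9.09%. Treatment held 31.1% for Clec4e, 19.5% for Clec4d and 75.0% for Bcl10, the exception among the 10. With vehicle, numbers 5 and 6 stood at 2.43 times the level of numbers 1 to 4 for Clec4e, at 1.71 times for Malt1, 1.34 times for both Clec7a and Clec4n, and 1.20 times for Syk. They stood at 0.854 times for Clec4d and at 0.83 times for Card9. The same ratios with HDM were 2.20 for Clec4e, 1.84 for Malt1, 1.42 for Clec7a, 1.34 for Clec4n, 1.20 for Syk, 0.871 for Clec4d and 0.923 for Card9. What sets these libraries apart was not tested. The change with HDM differed between the 2 sets for 0.0813% of all tested genes (11 of 13530), with adjusted p from 0.843 to 0.999 for the 10 genes here (edgeR interaction term).

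**Figure D3:**
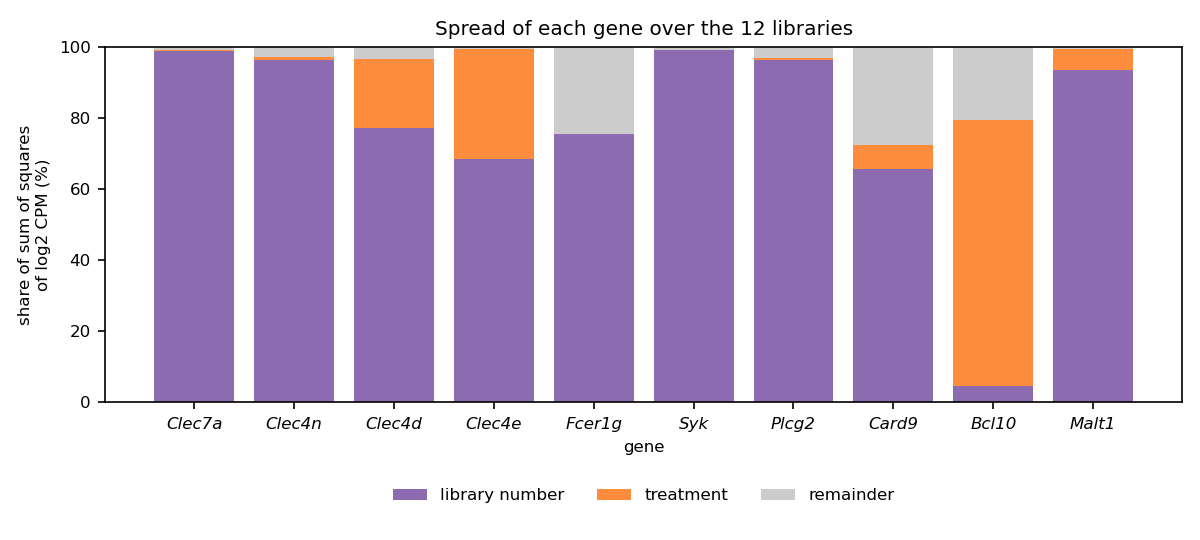
Share of each gene's sum of squares of log2 CPM over the 12 libraries, in percent, that goes with the library number, the treatment and the remainder. Treatment takes 75.0% of the bar of Bcl10 and 31.1% of that of Clec4e, and under 20% of each of the others.

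Genes around the route, in 6 lists, were read from the same fit, in which 5.37% of all tested genes were called in either direction. Values of single genes are from that fit unless the block is named, and counts with the block are to be read against 14.7% of all genes called there. Among other C-type lectins 1 of 15 tested members rose and 1 fell. Olr1, the gene of the oxidised LDL receptor LOX-1, had 1.31 ± 0.625 CPM with vehicle and 6.21 ± 2.87 with HDM (SD over 6 libraries here and below) and rose by 2.26 ± 0.35 on the log2 scale (adjusted p = 0.00141). Clec2d, which encodes a ligand of NK cell receptors, had 25.7 ± 2.52 CPM with vehicle and 14.5 ± 1.73 with HDM, and fell by 0.82 ± 0.08 (adjusted p = 4.02e-05). Clec1b and Cd209f, next by p, stayed under 1 CPM on average and were at -0.52 ± 0.41 and -0.70 ± 0.62 (adjusted p = 0.753 and 0.82). The list's median log2 change was -0.03, and the block also gave 1 rise and 1 fall.

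Of 11 tested Fc receptors and ITAM partners 1 rose, Trem1, an amplifier of inflammatory signals that works through the adaptor DAP12. It had 9.66 ± 2.51 CPM with vehicle and 32.3 ± 6.6 with HDM, a log2 change of 1.74 with an SE of 0.19 (adjusted p = 5.78e-05). Trem2, Itgb2 and Trem3 were at -0.04 ± 0.04, -0.04 ± 0.05 and 0.16 ± 0.23, with adjusted p of 0.889, 0.94 and 0.954. The block gave 1 rise in this list. Of 31 kinases, adaptors and inhibitors near SYK 2 rose, Pik3r1 from 103 ± 3.27 to 117 ± 3.47 CPM (0.18 ± 0.03, adjusted p = 0.00286) and Sla, which encodes an adaptor that dampens receptor signals, from 45.4 ± 1.61 to 50.9 ± 1.52 (0.17 ± 0.03, adjusted p = 0.00752, and 0.0522 with total library size). Pik3cd stood at 0.12 ± 0.03 (adjusted p = 0.0729 by group and 0.0145 in the block) and Plcg1 at -0.10 ± 0.04 (0.259). The list's median was -0.02, and with the block it had 4 rises and 1 fall among its 31 genes, beside 7.9% and 6.81% of all tested genes.

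Partners of the CARD, BCL10 and MALT1 complex and of the IKK kinases changed in 3 of 22 cases. Otud1, the gene of a deubiquitinase, had 24.3 ± 1.08 CPM with vehicle and 29.05 ± 2.27 with HDM and rose by 0.25 ± 0.05 (adjusted p = 0.0123). Sharpin, a subunit of the linear ubiquitin ligase, fell by 0.14 ± 0.03 (adjusted p = 0.0142) and Tab1, an activator of the kinase TAK1, fell by 0.31 ± 0.07 (adjusted p = 0.0203, and 0.0519 without HDM library 4). Trim62, a ubiquitin ligase of CARD9, was at 0.15 ± 0.06 (adjusted p = 0.18). Sharpin was not called without the low-count filter (adjusted p = 0.0645), and in numbers 5 and 6 alone neither was it (0.0796), nor Otud1 (0.198). With the block the list had 1 rise and 3 falls.

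Of 10 genes listed here as substrates of the MALT1 protease 3 rose. In the block, where 7.9% of all tested genes rose and 6.81% fell, 7 rose and 1 fell. Whether MALT1 cuts each of their products in these cells was not tested. Tnfaip3, whose product A20 removes ubiquitin from the NF-kB route, was at 83.7 ± 12.8 CPM with vehicle and 793 ± 213 with HDM (log2 fold change 3.25 ± 0.17 SE, adjusted p = 9.3e-08). Zc3h12a, the gene of the RNase Regnase-1, rose from 78.7 ± 9.38 to 98.9 ± 3.4 CPM (0.33 ± 0.07, adjusted p = 0.0121). Relb, an NF-kB subunit gene, rose by 0.13 ± 0.03 (adjusted p = 0.0396), a call lost without any of HDM 2, HDM 4, HDM 5, HDM 6 and vehicle 1, 2, 3 and 4 (adjusted p 0.0537 to 0.0972) with total library size (0.0612), without the low-count filter (0.122) and in numbers 5 and 6 alone (0.447). Zc3h12d, a relative of Regnase-1, had a change of -0.23 ± 0.07 by group (adjusted p = 0.101) and fell in the block (adjusted p = 1.06e-05). Of 19 output genes of Dectin signalling 14 were tested. Of these, Il6, Csf3 and Il1b reached the low-count cutoff in all 6 HDM libraries but not in all 6 vehicle libraries. Il6 and Csf3 reached it in 0 vehicle libraries and Il1b in 5, and these 3 are left out of the counts that follow. Of the 11 that reached it in all libraries of both treatments, 6 rose, and 8 with the block. Among those 11 genes the smallest p were those of the chemokine genes Cxcl2 and Cxcl1 and the cytokine gene Tnf. Cxcl2 had 9.93 ± 2.35 CPM with vehicle and 673 ± 134 with HDM, Cxcl1 1.87 ± 0.915 and 159 ± 83.2, and Tnf 12.03 ± 0.994 and 160.4 ± 32.8. Il6, a cytokine gene among the 3 left out, went from near 0, 0.0219 ± 0.0287 CPM, to 9.53 ± 4.38. The median log2 change was 2.57 over those 11 genes and 0.19 among the MALT1 substrates. Many of these outputs are shared with Toll-like receptors, and which receptor raised them was not tested.

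**Figure D4:**
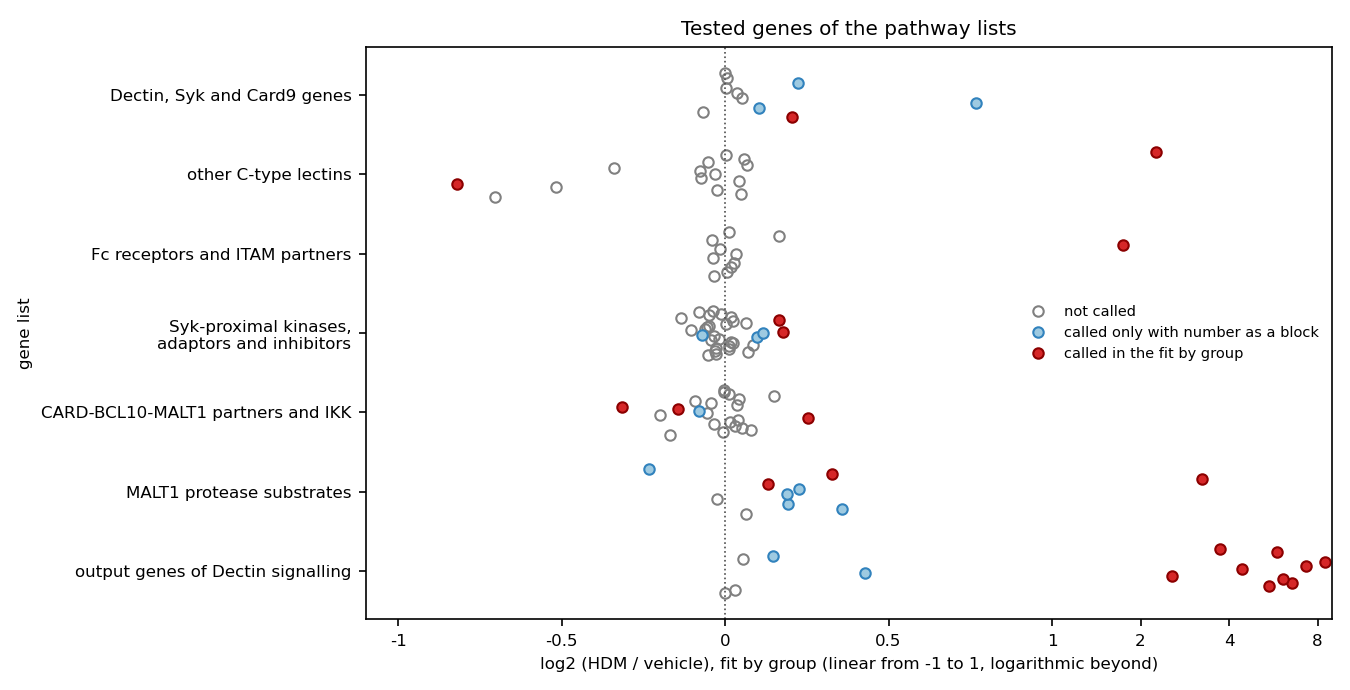
log2 ratio of HDM to vehicle in the fit by group for the tested genes of the 10-gene route and 6 lists around it, on an axis that is linear from -1 to 1 and logarithmic beyond. Red points were called by group, blue points were called with the library number as a block alone, and open points in neither. Of the 10 genes of the route 1 is red, and the output list has 9 red points. Of these 9, 3 (Il6, Csf3 and Il1b) reached the low-count cutoff in all HDM libraries but not in all vehicle libraries.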

How the data were processed

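Stranded mRNA libraries were made from total RNA of the 12 macrophage samples, per the labels' protocols. The authors deposited raw counts per gene symbol in 1 table, with 1 column per library, matched by library name. The aligner STAR 2.6.0c, the counter featureCounts 2.0.6 of Subread, the trimmers cutadapt 4.5 and Trim Galore 0.6.10, and FastQC 0.12.1 are listed, per the submitters' processing notes, beside 2 genome builds, mm39 and GRCm38, with no role. For annotation and strand setting the entry is: not given in the sources used here. Coordinates printed are those of RefSeq's GRCm38.p6 table, from which stretches of 8 of the 10 genes were taken. Chromosome 18, which carries Malt1, was left out of that step.

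Counts were tested with edgeR 4.0.16 (R 4.3.3) by the quasi-likelihood F test, two-sided, with TMM factors, filterByExpr at its defaults (minimum count 10, total 15), group as the only term and Benjamini-Hochberg adjustment over 13530 genes. Deposited counts were also fitted with limma 3.58.1 and DESeq2 1.42.0, with the library number as a block, and without single libraries. Standard errors are the absolute log2 change over the square root of F. CPM carry TMM factors. Deviations from the group means correlated at 0.35 to 0.645 between HDM and vehicle libraries of the same number, in 6 of 6 above 0.1. Same-numbered libraries were treated as pairs for that reason, although no label states it. Correlations between libraries of different numbers were not computed. Libraries of neighbouring numbers were also alike, so the check cannot tell pairs from larger sets of libraries. The p-values of the block and of the sign flips rest on this choice. Count ratios, with 0.5 added to each count, were compared by exact permutation over 924 splits or 64 sign flips. The fit was tested on simulated data. Named genes are the 10 genes, the 4 smallest p of each list and the 3 profiles nearest to the called gene with the smallest p. The genes, lists and tests were chosen with earlier results of these data known.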

Additional observations from a re-analysis of the deposited data

Results flagged for a closer look

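In 20 groups of 6 CPM values, 10 genes in 2 treatments, 1 library stood apart by Dixon's test, about the 1 in 20 that chance flags. It was HDM library 3 for Bcl10, at 59.4 CPM beside 63.9 to 66.1 in the other 5, a gap of 0.663 of the whole range against a critical value of 0.625.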

How the results depend on the processing

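Bcl10 was called higher under all 22 alternatives, at log2 changes of 0.17 to 0.30. With the replicate block, calls went from 727 to 1990 over all tested genes, from 1 to 4 among the 10 genes and from 20 to 31 in the 6 lists, Il6, Csf3 and Il1b included. Those 3 reached the low-count cutoff in all 6 HDM libraries but not in all 6 vehicle libraries, and both fits called them. Numbers 1 to 4 alone called 2 of the 10, and 1076 of 13650 genes in all. Numbers 5 and 6 alone called 4 of the 10, and 1139 of 13449. Of the 9 ratios 0 to 2 were called when 1 library was left out, the 2 without vehicle library 5. Log2 changes near 0 turned sign, and the cause was not tested. By group they were, with upper-quartile factors, -0.0127 for Fcer1g and -0.0095 for Plcg2, and with total library size -0.0165 and -0.0127. Syk was at 0.0014 with RLE factors and with DESeq2 and at 0.0018 in numbers 1 to 4 alone, where Fcer1g was at -0.030 and the Bcl10 to Malt1 ratio at -0.0043. Card9 was at 0.035 in numbers 5 and 6 alone. With the block, Fcer1g and Plcg2 were at -0.0131 and -0.0095 (upper-quartile factors) and -0.0163 and -0.0127 (total library size), and Syk at 0.0013 (RLE factors). Leaving out 1 library at a time gave -0.037 to 0.11 for Clec7a, -0.024 to 0.13 for Clec4n, -0.017 to 0.038 for Fcer1g, -0.044 to 0.036 for Syk and -0.0098 to 0.033 for Plcg2. For the ratios it gave -0.043 to 0.15 (Clec4d to Clec4n), -0.039 to 0.0065 (Clec7a to Clec4n), -0.13 to 0.027 (Fcer1g to Clec4n), -0.063 to 0.045 (Syk to Plcg2) and -0.13 to 0.11 (Bcl10 to Malt1). Leaving out both libraries of a number in the block gave -0.017 to 0.030 for Fcer1g and -0.0058 to 0.011 for Syk. Counting error in the library with the fewest reads reached 0.07 for Card9, and the effect of depth was not tested.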
